A study of Mus musculus with 6 samples.

Results

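The smooth muscle and SRF target genes examined here were Srf, Acta2, Lmod1, Cnn1, Cnn2, Tagln, Smtn, Myh11, Myl9 and Vcl, followed in differentiating C2C12 cells that received an siRNA against H19. They were chosen by symbol. Every probe set that the platform annotation gives under exactly 1 of these 10 symbols was taken, which yielded 10 probe sets, 1 for each gene, of 23410 probe sets with a listed gene. The table names 19938 genes by 1 symbol. C2C12 is an established mouse myoblast line that fuses into myotubes when serum is lowered, and the labels call the cells wild type. RNA of cells that received an siRNA against mouse H19 (simH19) was hybridised to 3 arrays, and RNA of cells that received a control siRNA (siCon) to the other 3. All cells had grown with 10% fetal bovine serum, were switched to 2% horse serum at about 90% density, were transfected on day 1 of differentiation and were harvested 40 h later. The model is therefore a transient knockdown in 1 cell line. H19 is an imprinted long noncoding RNA. The groups differ in the siRNA that was transfected, and effects of the H19 siRNA other than on H19 cannot be told apart from those of H19 depletion here. Whether the triplicates were separate cultures is not stated, so the p-values weigh the difference against a spread that may be purely technical.

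Serum response factor (SRF) is a transcription factor that binds the CArG box, a short A/T-rich element between a CC and a GG pair. Its partners set which targets respond: myocardin and the myocardin-related factors drive contractile and adhesion genes, while the ternary complex factors drive immediate early genes. Smooth muscle cells use this circuit to make a contractile apparatus built from smooth muscle actin, myosin, calponin, transgelin and smoothelin. Several of these proteins are also made by fibroblasts and by cultured skeletal myoblasts, where they belong to stress fibres and focal adhesions.

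RefSeq promoters (build GRCm38.p6) were found for 8 of the 10 genes, and not for Tagln and Myh11. The stretches that hold CArG elements are shown because SRF binds the CArG box. Whether SRF bound these stretches in the cells was not measured here. Capitals mark a CArG box or, in Acta2 and at the second element of Myl9, a CArG-like element in which 5 and not 6 of the middle bases are A or T. All sequences lie upstream of the annotated gene start and run 5′ to 3′ along the gene's strand. In order, they are from chr17:46556195-46556264 (minus strand), chr19:34255378-34255477 (minus), chr10:79988524-79988573 (plus), chr2:156775283-156775394 (plus) and chr14:20929151-20929200 (plus).
Srf: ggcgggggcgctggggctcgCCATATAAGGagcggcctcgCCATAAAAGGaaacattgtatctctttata
Acta2: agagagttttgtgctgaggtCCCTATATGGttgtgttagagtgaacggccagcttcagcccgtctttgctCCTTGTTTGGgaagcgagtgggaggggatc
Cnn2: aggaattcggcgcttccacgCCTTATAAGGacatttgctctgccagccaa
Myl9: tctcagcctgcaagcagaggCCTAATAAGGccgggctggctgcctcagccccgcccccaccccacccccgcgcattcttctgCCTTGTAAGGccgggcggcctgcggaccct
Vcl: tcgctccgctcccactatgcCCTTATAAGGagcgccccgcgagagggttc

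The CArG and CArG-like patterns are unchanged by reverse complement, so a single search covered both strands. Within 250 bases before the gene start, a CArG box was present in 4 of the 8 promoters (50%), against 482 of all 32851 promoters (1.47%). A CArG-like element was present in Acta2 and Myl9, or 2 of 8, against 7.24% of all promoters. Srf itself held 2 boxes whose first bases lie 20 bases apart, an arrangement of 2 or more boxes seen in 6 of the 32851 promoters. The promoters of Lmod1, Cnn1 and Smtn had neither element in this window, which says nothing of elements elsewhere. Since the genes were listed as SRF targets, this share describes how they were chosen and is not a finding of the experiment.

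**Figure D1:**
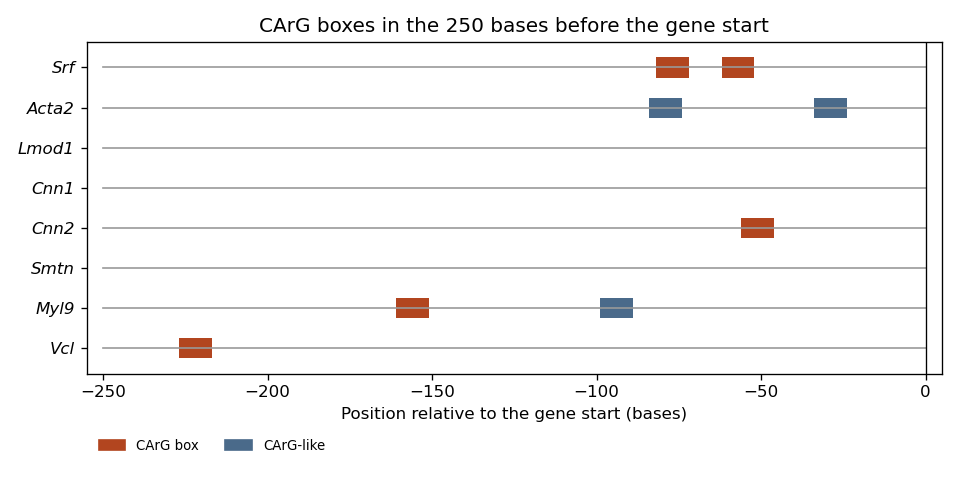
CArG boxes (red) and CArG-like elements (blue) in the 250 bases before the gene start of the 8 genes with a RefSeq promoter. The horizontal axis is the position in bases relative to the gene start, and Srf shows 2 boxes while Lmod1, Cnn1 and Smtn show none in this window.

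The reading closest to H19 fell with H19 siRNA. No probe set is listed under H19, and the reading closest to it, a probe set listed under both Mir675 (which lies within H19) and Supt6, had 10.38, 10.28 and 10.37 log2 units with H19 siRNA and 12.21, 12.22 and 12.27 with control siRNA. It fell by 1.89 log2 units (limma adjusted p = 2.11e-05). The 6 arrays had medians between 6.73 and 6.78 over all rows and mean correlations with the other arrays between 0.9962 and 0.9971. The lowest of these belonged to H19 siRNA replicate 2. Of the 6 skeletal muscle markers, Myod1, Myog, Des and Tnnt2 lay at or above the 90.6th percentile of mean signal, Ckm at the 83.1st and Myh3 at the 68.3rd, and Tnnt2 rose by 0.26 log2 units (limma adjusted p = 0.0465), while the other 5 did not pass. Myocd, the myocardin gene, lay at the 25.8th percentile. The other smooth muscle markers, all among the 10 genes, lay between the 41.1st (Myh11) and the 99.8th (Acta2). The endothelial markers Pecam1, Cdh5, Kdr and Tek lay at the 30.8th or below. Fibroblast markers lay between the 44.6th (Lum) and the 96.7th (Dcn), and pericyte markers between the 13.9th (Rgs5) and the 96.8th (Pdgfrb). Of the 4 fibroblast markers, Dcn and Lum fell by 0.50 and 0.95 log2 units (limma adjusted p = 0.00818 and 0.0257), while Pdgfra differed by -0.25 and Col1a1 by 0.01 without passing. The calls of Tnnt2, Dcn and Lum were lost in 9, 6 and 7 of the 15 alternatives. All 3 were lost with the replicate number as a block and without any single array other than H19 siRNA replicate 2, and Tnnt2 was lost without that array too. Their adjusted p-values reached 0.358 for Tnnt2, 0.155 for Dcn and 0.154 for Lum, while their differences stayed between 0.24 and 0.27, between -0.52 and -0.49, and between -1.0038 and -0.8359 log2 units. None of the pericyte markers Rgs5, Cspg4, Pdgfrb and Mcam passed, with differences between 0.01 and 0.09. The part of any of these markers in the values below was not tested. These percentiles are ranks among the 23410 listed probe sets. As probe sets differ in brightness for equal RNA, such percentiles show only how close a reading may be to background. Among the 10 genes, Myh11, Cnn1 and Lmod1 were dim, between the 41.1st and the 44.5th percentile, and the other 7 lay between the 65.9th and the 99.8th. The filters instead used all rows, listed or not. A filter at the 30th percentile of all rows kept all 10 probe sets, and a filter at the median of all rows kept 9, all but Myh11.

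Small differences were seen in the 10 genes, and none passed the test. Myl9 and Lmod1 had the largest, 1.15-fold and 1.17-fold higher with H19 siRNA, and the other 8 genes lay between -0.02 and 0.06 log2 units. A gene was called at a limma p under 0.05 after Benjamini-Hochberg adjustment over all 23410 probe sets. By that rule 0 of the 10 were called, against 0.184% of all probe sets. At an unadjusted limma p under 0.05, 2 of the 10 passed, Myl9 and Lmod1, against 10.7% of all probe sets, and both were higher with H19 siRNA, as were 6.39% of all probe sets. All 3 H19 siRNA arrays lay above all 3 control arrays for 4 genes, Myl9, Lmod1, Cnn2 and Vcl, against 10.4% of all probe sets. No gene had all H19 siRNA arrays below the controls, against 7.10% of all probe sets. A positive difference was found for 8 of the 10 genes and for 57.5% of all probe sets. The median difference was 0.05 log2 units for the 10 genes and 0.01 for all probe sets. In bulk RNA, fewer cells of a kind and less RNA per cell cannot be told apart.

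**Figure D2:**
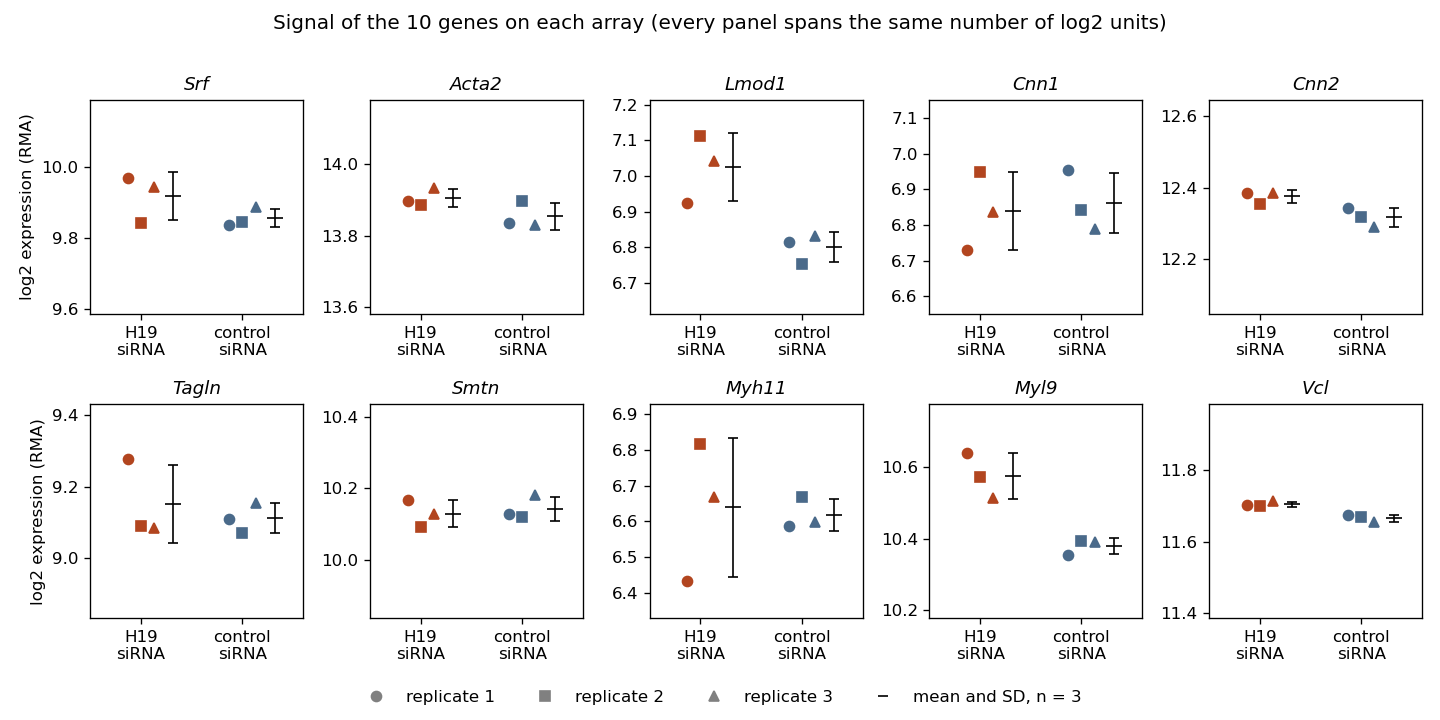
Log2 expression of each of the 10 genes on every array, H19 siRNA (red) left of control siRNA (blue), with symbols for the replicate number and black marks for mean and SD (n = 3). All panels span the same number of log2 units, and only Myl9, Lmod1, Cnn2 and Vcl show groups that do not overlap.

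Srf encodes the regulator itself. It read 9.97, 9.84 and 9.94 log2 units with H19 siRNA and 9.84, 9.85 and 9.89 with control siRNA. Replicate 2 of the H19 siRNA arrays lay among the controls, so the groups overlapped. The difference was 0.06 log2 units with a 95% interval from -0.04 to 0.17, and the limma adjusted p was 0.661.

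The actin filament genes were represented by Acta2 and Lmod1. Acta2, smooth muscle alpha-actin, was among the brightest probe sets of the table. It read 13.90, 13.89 and 13.93 with H19 siRNA and 13.84, 13.90 and 13.83 with control siRNA. Replicate 2 of the controls reached the level of the H19 siRNA arrays, so the groups overlapped, and the difference was 0.05 log2 units (95% interval -0.03 to 0.14, limma adjusted p = 0.659). Actins are near-identical in their coding sequence, so a share of this signal may come from other actin transcripts, which was not tested.

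Lmod1, a leiomodin of smooth muscle that nucleates actin filaments, had the largest difference of the 10 genes. It read 6.92, 7.11 and 7.04 log2 units with H19 siRNA and 6.82, 6.75 and 6.83 with control siRNA. All H19 siRNA arrays were higher than all controls. The difference was 0.22 log2 units (SE 0.06, 95% interval 0.09 to 0.36), with an unadjusted limma p of 0.00496 and an adjusted p of 0.244. The reading is dim, and its highest value fell on H19 siRNA replicate 2. On that array the dimmer 50% of probe sets had a median deviation of 0.05 log2 units from their own 6-array mean, and 37.6% of them had their highest value. Without that array the difference of Lmod1 was 0.18 log2 units, with an unadjusted limma p of 0.0114 and an adjusted p of 0.291. The part of that array's dim readings in the difference of Lmod1 was not otherwise tested. Among probe sets between the 40th and the 50th percentile of mean signal, 1.96% had a difference at least as large as that of Lmod1.

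Calponins, transgelin and smoothelin bind actin filaments and mark contractile or stress-fibre-rich cells. Cnn1, the calponin of differentiated smooth muscle, read 6.73, 6.95 and 6.84 with H19 siRNA and 6.96, 6.84 and 6.79 with control siRNA. Its groups covered almost the same range, and the difference of -0.02 log2 units had a 95% interval from -0.19 to 0.14 (limma adjusted p = 0.929). The sign turned without H19 siRNA replicate 1 (0.03) and without control siRNA replicate 1 (0.02).

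Cnn2, the more widely expressed calponin, was bright and steady. It read 12.39, 12.36 and 12.38 with H19 siRNA and 12.34, 12.32 and 12.29 with control siRNA. The groups did not overlap, but the gap was narrow, with a difference of 0.06 log2 units (95% interval -0.02 to 0.14, limma adjusted p = 0.597).

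Tagln, transgelin or SM22-alpha, read 9.28, 9.09 and 9.09 with H19 siRNA and 9.11, 9.07 and 9.15 with control siRNA. A single array, H19 siRNA replicate 1, stood above the rest, and the remaining H19 siRNA arrays lay within the control range. The difference of 0.04 log2 units (95% interval -0.10 to 0.18, limma adjusted p = 0.852) became -0.02 without that array. Smtn, smoothelin, read 10.17, 10.09 and 10.13 with H19 siRNA and 10.13, 10.12 and 10.18 with control siRNA. The groups overlapped, though the lowest value was on H19 siRNA replicate 2 and the highest on control siRNA replicate 3. The difference was -0.01 log2 units (95% interval -0.10 to 0.08, limma adjusted p = 0.922). It was 0.01 without H19 siRNA replicate 2 or without control siRNA replicate 3.

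Smooth muscle myosin was represented by a heavy and a light chain gene. Myh11, the heavy chain of smooth muscle myosin, read 6.43, 6.82 and 6.67 log2 units with H19 siRNA and 6.59, 6.67 and 6.60 with control siRNA. The H19 siRNA arrays held both the lowest and the highest of the 6 values, with an SD of 0.19 against 0.04 in the controls (n = 3 each). The difference was 0.02 log2 units with a 95% interval from -0.20 to 0.24 (limma adjusted p = 0.955), the widest of the 10 genes. It was 0.13 without H19 siRNA replicate 1 and -0.07 without replicate 2, and -0.0011 after centring each array on its median.

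Myl9 encodes the regulatory light chain of smooth muscle and nonmuscle myosin, whose phosphorylation switches contraction on. It read 10.64, 10.57 and 10.51 log2 units with H19 siRNA and 10.35, 10.39 and 10.39 with control siRNA. The lowest H19 siRNA array stood above the highest control, and the gap was larger than the SD of either group (0.06 with H19 siRNA and 0.02 with control siRNA, n = 3 each). The difference was 0.20 log2 units (SE 0.04, 95% interval 0.10 to 0.30), with an unadjusted limma p of 0.0026 and an adjusted p of 0.196. When the variance followed an intensity trend with robust estimation, Myl9 was called (adjusted p = 0.0138), the only one of the 10 genes, in a fit that called 1.74% of all probe sets. In the other 14 alternatives its limma adjusted p lay between 0.0698 and 0.501, and its difference lay between 0.16 and 0.23 log2 units. Its promoter carries a CArG box and a CArG-like element. That of Lmod1, the gene with the largest difference, has neither in the window searched. The promoters of Srf, Cnn2 and Vcl also carry a CArG box, and that of Acta2 carries 2 CArG-like elements. Those of Cnn1 and Smtn also have neither element. Whether these elements relate to the differences was not tested.

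Vcl, vinculin, links actin filaments to focal adhesions and cell contacts. It read 11.70, 11.70 and 11.71 with H19 siRNA and 11.67, 11.67 and 11.65 with control siRNA. The groups did not overlap and each had an SD of 0.01 (n = 3), yet the difference was only 0.04 log2 units. The moderated standard error of limma, which draws on all probe sets, was 0.03, and the adjusted p was 0.694 (95% interval -0.03 to 0.11).

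**Figure D3:**
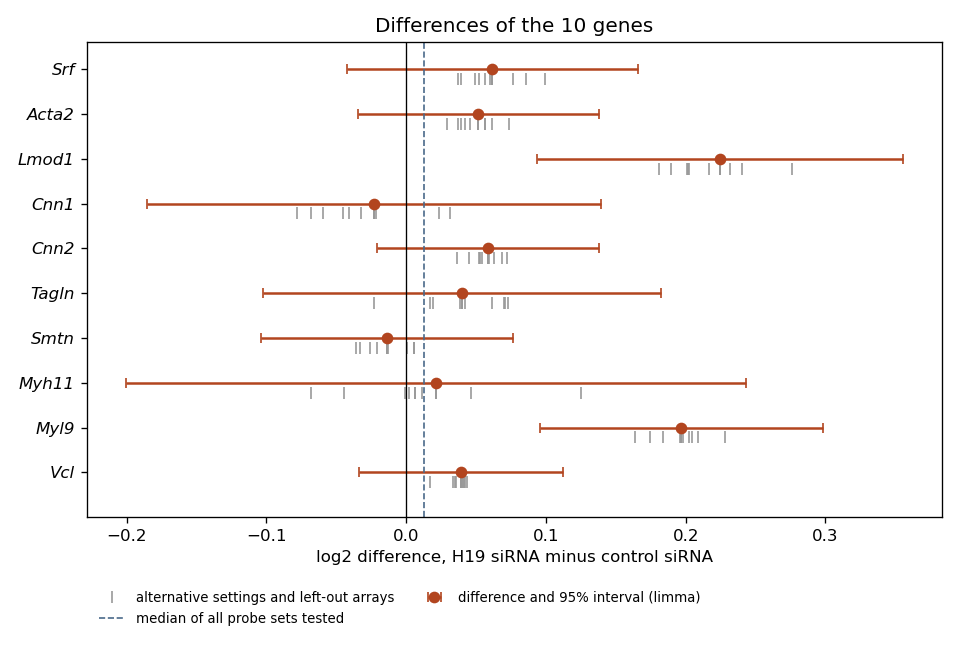
Log2 difference, H19 siRNA minus control siRNA, of the 10 genes with 95% intervals from limma (red) and the values under every alternative setting or left-out array (grey ticks). The intervals of Myl9 (0.10 to 0.30) and Lmod1 (0.09 to 0.36) lie above 0, and those of the other 8 genes include 0.

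The genes did not share a single pattern across arrays. Tagln, Cnn2, Myl9 and Srf were highest on H19 siRNA replicate 1, Lmod1 and Myh11 on replicate 2, and Acta2 and Vcl on replicate 3. Cnn1 was highest on control siRNA replicate 1 and Smtn on control siRNA replicate 3. Cnn1 and Myh11 were at their lowest on the same H19 siRNA replicate 1 on which Tagln, Srf and Myl9 peaked. The 3 dim genes Lmod1, Cnn1 and Myh11 all read above their 6-array means on H19 siRNA replicate 2, by 0.20, 0.10 and 0.19 log2 units.

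**Figure D4:**
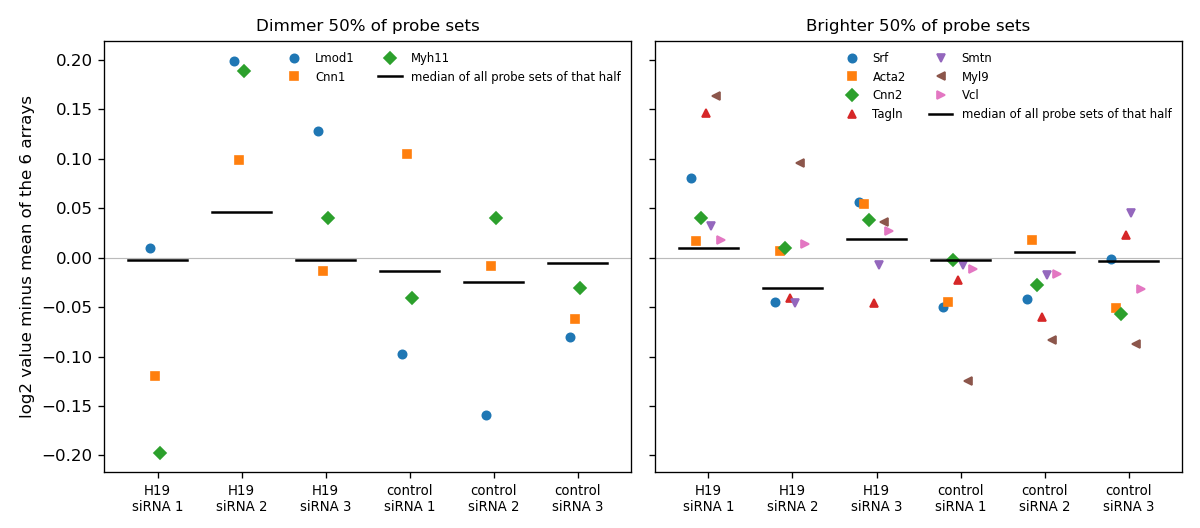
Deviation of each gene from its mean over the 6 arrays, in log2 units, with the 3 dim genes on the left and the 7 brighter genes on the right. Black bars give the median deviation of all probe sets of the dimmer or brighter 50% on that array, and on H19 siRNA replicate 2 the dimmer bar is at 0.05 and the brighter bar at -0.03.

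Genes that act upstream of or beside SRF did not pass the test either. Of 21 probe sets for 18 cofactor and regulator genes, 0 were called in either direction, and the median difference was -0.0011 log2 units. The smallest p-values belonged to Elk1 and Elk4, ternary complex factors, at 0.14 and -0.08, to the small GTPase gene Rhoc at 0.12 and to Fhl2, a LIM-domain partner and target of SRF, at -0.11, with limma adjusted p-values between 0.315 and 0.582. Myocd differed by -0.0011 log2 units at a dim level. The myocardin-related factor genes, named after their values were seen, were Mrtfa at 0.07 (limma adjusted p = 0.611) and Mrtfb at 0.0026, -0.04 and -0.03 in its 3 probe sets (limma adjusted p from 0.835 to 0.990). Among 9 TGF-beta genes, a main input to smooth muscle gene expression, 0 were called and the median was 0.04. The ligand gene Tgfb2 had the smallest p, at 0.14 log2 units and a limma adjusted p of 0.262. It was followed by the receptor gene Tgfbr1 at 0.07, Smad3 at 0.05 and Tgfb1 at 0.04.

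Other targets of SRF were grouped by the partner or tissue they are known for. Of 24 actin cytoskeleton and adhesion targets, 0 were called, 18 had a positive difference (57.5% among all probe sets), and the median was 0.03 log2 units, or 0.01 after median centring. Palld (palladin) at 0.12, Pdlim7 at 0.13, Fhl2 at -0.11 and Mylk, the kinase that phosphorylates Myl9, at 0.09 had the smallest p-values, with limma adjusted p-values between 0.319 and 0.430. All H19 siRNA arrays lay above the controls for 8 of the 24 and below them for 2, against 10.4% and 7.10% of all probe sets. Of 10 immediate early targets, 0 were called and 8 had a negative difference, against 9957 of all 23410 probe sets. Their median was -0.01, which was -0.04 after median centring and 0.0021 without H19 siRNA replicate 2. Egr3 at -0.10, Nr4a1 at 0.14, Dusp1 at -0.09 and Mcl1 at -0.03 led that list, and the smallest limma adjusted p was 0.372.

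The 6 striated muscle targets had the highest median of these lists, 0.08 log2 units, with 5 positive differences (57.5% among all probe sets) and 0 calls. The slow troponin C gene Tnnc1 read 11.54 ± 0.05 with H19 siRNA and 11.40 ± 0.02 with control siRNA (SD, n = 3 each; limma adjusted p = 0.259). Skeletal alpha-actin, Acta1, read 12.57 ± 0.04 with H19 siRNA and 12.47 ± 0.0042 with control siRNA (SD, n = 3 each; limma adjusted p = 0.372). Both were called with an intensity trend, Tnnc1 at a limma adjusted p of 0.0176 and Acta1 at 0.0283. That fit called 1.74% of all probe sets, against 0.184% in the reported fit. Ckm, muscle creatine kinase, differed by 0.10 and Des, desmin, by 0.06. The skeletal muscle regulators Myod1 and Myog differed by 0.23 and 0.22 log2 units without passing (limma adjusted p = 0.103 and 0.0831), and their part in the values of SRF targets was not tested.

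Paralogs of the 10 genes gave 0 calls in 18 probe sets, with a median of 0.04 log2 units. With the intensity trend 1 of them was called, Acta1, against 1.74% of all probe sets. Acta1, Lmod3 (0.08), the nonmuscle myosin gene Myh9 (0.16 in 1 probe set and 0.05 in the other) and Lmod2 (0.09) had the smallest p-values. Myl12a and Myl12b, the light chain genes closest to Myl9, differed by 0.02 and -0.04, and these 2 were chosen after their values were seen. Whether Myl9 differed from them was not tested.

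Of 13 further smooth muscle and mural cell genes, 1 was called, against 0.184% of all probe sets. The list was chosen with earlier results of these data known, so this count is not a test of smooth muscle genes. The called gene, Heyl, had the largest rise of all 23410 probe sets. Heyl, a Notch-induced repressor found in vascular smooth muscle, read 9.51 ± 0.14 log2 units with H19 siRNA and 8.54 ± 0.07 with control siRNA (SD, n = 3 each), a difference of 0.97 with a limma adjusted p of 0.0133. That call was lost in 7 of the 15 alternatives: without any single array other than H19 siRNA replicate 2 (adjusted p from 0.0757 to 0.113), with the replicate number as a block (0.0557) and over all rows (0.0518). The difference in those 7 lay between 0.9022 and 0.9964 log2 units. The other 12 genes had adjusted p-values of 0.430 or more. Mylk, the pericyte gene Cspg4 (0.09) and Synpo2 (0.13) came next.

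**Figure D5:**
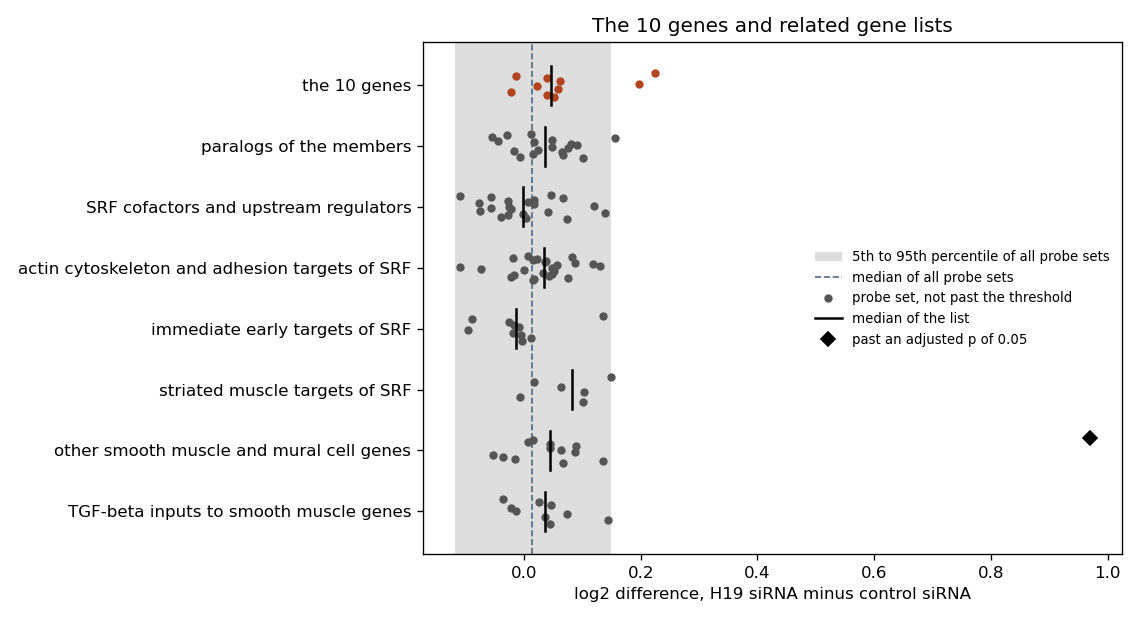
Log2 differences, H19 siRNA minus control siRNA, of the 10 genes (red) and of 7 related gene lists (grey), with list medians as vertical bars and the 5th to 95th percentile of all probe sets shaded. Lmod1 and Myl9 lie beyond the shaded range, which ends at 0.15, and Heyl at 0.97 is the only point past an adjusted p of 0.05.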

How the data were processed

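The deposited table holds log2 expression of each probe set, for which the authors used RMA. The submitters' processing notes also name Affymetrix Expression Console. RMA corrects background, normalises arrays by quantiles and summarises probes, which compresses small changes near background. The software version is not given in the sources used here. Scanner files were not analysed here, and the number of arrays (3 per group) limits the precision. Of 35556 rows, 21789 have 1 symbol in GEO's platform annotation, 1621 several and 12146 are not listed. Identifiers of 21698 matched RefSeq.

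All 23410 listed probe sets were fitted with lmFit and eBayes of limma 3.58.1 (R 4.3.3), H19 siRNA minus control siRNA, two-sided, with no covariate and a Benjamini-Hochberg threshold of 0.05. Intervals are 95% limma intervals. The fit was tested on simulated data, in which the smallest planted changes were larger than any difference of the 10 genes. That test therefore does not show how often differences of their size would be called. The genes and the 7 related lists were chosen with earlier results of these data known, so lists have counts and medians but no test. The rule for named genes took all 10 genes, the 4 with the smallest limma p of each list and the Mir675 and Supt6 probe set, and any other gene only as chosen after its values were seen. Markers were fixed in the design. In the lists, 3 entries (Actg1 in 2 lists and Rock2) were not analysed here. No arrays were identical among the 15 pairs. Same-numbered arrays were not paired in the reported fit. Their deviations from the group means correlated at -0.020, -0.137 and -0.152. Differently numbered arrays were not compared, so these values cannot show whether the replicates were paired. Promoters were searched with Python 3.11.15.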

Additional observations from a re-analysis of the deposited data

How the results depend on the processing

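The count of called genes among the 10 was 0 in the reported fit and 1 (Myl9) with an intensity trend and robust variance, and 0 in the other 14 alternatives. The count of all called probe sets was 43. It was 408 with the trend, 190 and 69 with filters at the median and the 30th percentile, 72 with array weights, 11 over all rows and 1 with the replicate number as a block, and between 1 and 13 with an array left out. With that block Myl9 differed by 0.20 log2 units (adjusted p = 0.494). The median of the 10 genes (0.05) was 0.0596 with array weights, 0.0234 after median centring, where that of all probe sets was -0.01, and between 0.0420 and 0.0650 with an array left out. Signs turned for Myh11 with array weights (-0.0442) and after median centring (-0.0011), and for Smtn with array weights (0.0005). With an array left out they also turned, as differences ran from -0.0680 to 0.1253 for Myh11, from -0.0331 to 0.0057 for Smtn, from -0.0779 to 0.0314 for Cnn1 and from -0.0233 to 0.0728 for Tagln. Medians of the related lists moved as well, over all alternatives from 0.0119 to 0.0398 for the actin and adhesion targets, from -0.0355 to 0.0021 for the immediate early targets, from 0.0593 to 0.1008 for the striated muscle targets, from 0.0135 to 0.0471 for the TGF-beta genes, from 0.0129 to 0.0409 for the paralogs, from -0.0283 to 0.0046 for the cofactors and regulators and from 0.0219 to 0.0648 for the other smooth muscle genes. The causes were not tested. Lmod1, Myl9, Acta2, Cnn2, Srf and Vcl stayed positive in all 15 alternatives, but many of these could not turn a sign. The trend, the filters, the block, 1 probe set per gene and all rows leave a gene's difference unchanged. For Lmod1, Myl9, Cnn2 and Vcl, whose groups do not overlap, array weights or a left-out array could not turn the sign either. With 3 arrays per group, the 95% intervals of the genes other than Myl9 and Lmod1 reach differences between 0.08 and 0.24 log2 units upward. Readings near background, as may hold for Myh11, Cnn1 and Lmod1, could understate a change.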
